A study of Mus musculus with 6 samples.

Results

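Blood endothelial cells line the arteries, capillaries and venules of the intestinal lamina propria. They were found here as 988 of the 102534 cells kept (0.964%) in 6 single-cell RNA libraries of the mouse intestine. The cells were chosen by measured values: a barcode was a member if at least 3 of 6 vessel markers (Plvap, Kdr, Flt1, Selp, Cd36 and Esam) had 1 or more unique molecular identifiers (UMIs, counted mRNA molecules), if Plvap or Flt1 was among them, and if the pan-endothelial genes Pecam1 or Cdh5 also had a UMI. A barcode with any UMI of Prox1 or Mmrn1, which mark lymphatic endothelium, of Ptprc, which encodes the leukocyte antigen CD45, or of Pdgfra, which marks fibroblasts, was not a member. Levels of these 12 genes are therefore properties of the choice and not results.

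All libraries came from Flare-TSLP mice on the C57BL/6 background, in which an IRES-tdTomato cassette placed behind the coding sequence of Tslp reports the cytokine TSLP, and which derive from 1 targeted embryonic stem cell clone. Per the study's methods, mice were 8 to 12 weeks old and of both sexes. Live tdTomato-positive lamina propria cells were sorted after removal of Peyer's patches and epithelium, tagged with antibody hashtags against H-2 and CD45, pooled and captured. No treatment or second genotype entered these libraries, and the labels set the groups apart by gut region: 2 libraries of the proximal small intestine (proximal jejunum, proximal 1 and proximal 2), 2 of the distal small intestine (distal ileum, distal 1 and distal 2), 1 of the cecum and 1 of the large intestine. The labels do not say which mice entered which library, so each library was 1 sample and p-values measure the spread between libraries, which may be technical. Cecum and large intestine had 1 library each and were joined as the large bowel for tests.

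Intestinal capillaries are fenestrated, and PLVAP forms the diaphragms that close the fenestrae. Arterial endothelium is maintained by Notch signalling and SOX17, venules recruit leukocytes through selectins and adhesion molecules, and capillary endothelium takes up fatty acids through CD36 and cytoplasmic binding proteins. Lymphatic endothelium, the closest relative, instead depends on PROX1 and on VEGFR-3, the product of Flt4.

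The files held 109675337 to 206827504 gene UMIs per library, of which the members carried 2960111, 1230973, 1004082, 785834, 99937 and 1087564 in proximal 1, proximal 2, distal 1, distal 2, cecum and large intestine. All values below follow that order of the 6 libraries. The median member had 5522, 6146, 5111.5, 5185, 4175 and 7736 UMIs, less than the medians of 6772 to 9413 over all kept cells. Scrublet predicted 21 members as doublets, and no 2 libraries shared a member barcode. The replicate 1 libraries, the cecum and the large intestine carried 1 set of hashtags, and the replicate 2 libraries carried another, so that the large bowel was measured with 1 hashtag set only. The cecal sum rested on 15 cells, of which 2 held 38799 of its UMIs.

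Blood endothelial cells made up the largest share of kept cells in proximal 1. There were 423, 159, 154, 130, 15 and 107 members, or 2.45%, 0.887%, 0.723%, 0.640%, 0.108% and 0.911% of kept cells. The exact 95% binomial intervals, which cover counting error only, were 2.22% to 2.69%, 0.755% to 1.04%, 0.614% to 0.846%, 0.535% to 0.759%, 0.0602% to 0.177% and 0.747% to 1.0993%. Proximal 1 therefore stood above, and the cecum below, every other library. The 2 proximal shares were higher than the 2 distal ones (1.67% ± 1.103 against 0.681% ± 0.0590, SD, n = 2 each, exact permutation test, two-sided, p = 0.333, the smallest that 2 against 2 allows, so that this test could not pass). The difference between small intestine and large bowel did not pass (1.17% ± 0.855, n = 4, against 0.509% ± 0.568, n = 2, exact permutation test, two-sided, p = 0.533, smallest possible 0.0667). Without proximal 1, the library farthest from the rest, the difference between proximal and distal went from -0.986 to -0.206 percentage points (distal minus proximal) and that between small intestine and large bowel from -0.665 to -0.241. The share depends on the sort, which selected for the reporter and not for endothelium. Only part of the kept cells could be assigned to 1 hashtag, and shares among those were above that of the whole library for most hashtags, but below it for 1 of distal 2 (0.471%) and 1 of the cecum (0.103%). They were 4.76%, 7.78% and 11.3% for the 3 hashtags of proximal 1, 1.14%, 2.18% and 1.59% for those of proximal 2 and 5.36%, 2.35% and 4.98% for those of distal 1.

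**Figure D1:**
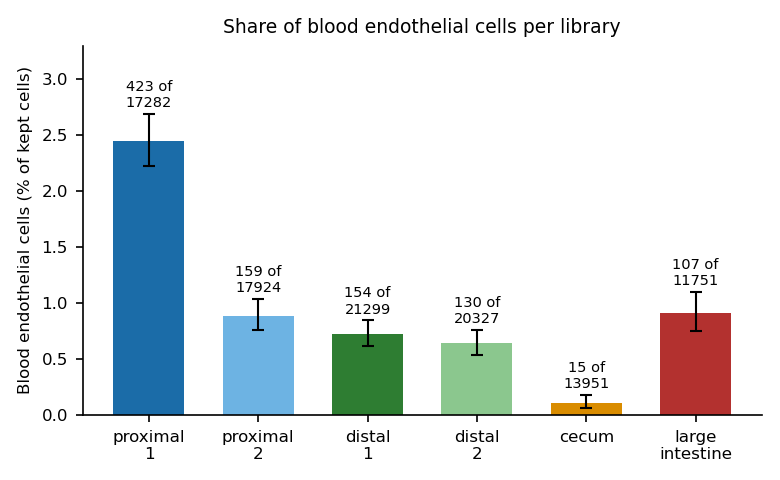
Share of blood endothelial cells among kept cells in each library (percent), with exact 95% binomial intervals as error bars and the cell numbers above each bar. Proximal 1 has 2.45% and the cecum 0.108%, and the other 4 libraries lie between 0.640% and 0.911%.

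The label was checked with genes that the rule did not use. Mecom, a transcription factor of blood vessel endothelium, had 1476, 1569, 1374, 1747, 941 and 1105 UMIs per 1000000 gene UMIs of the members (CPM) and a UMI in 86.7 to 96.2% of members. In lymphatic endothelial cells of the same libraries, taken as cells with Prox1, Mmrn1 and Pecam1 or Cdh5 and without Plvap, Selp, Ptprc and Pdgfra, its level was 2.69 to 10.2 CPM and the share of cells with a UMI 1.11 to 2.63%. The members also had the endothelial genes Egfl7 (496 to 994 CPM), Tie1 (153 to 184 CPM) and Eng (605 to 879 CPM). In the comparison with lymphatic cells below, 8 pan-endothelial genes outside the rule were measured. Of these 6 were higher and 1, Cldn5, was lower in the members, against 27.1% and 25.5% of all genes. The 7 lymphatic markers summed to 48.7 to 200.1 CPM against 16577 to 24556 CPM in lymphatic cells, with Prox1 and Mmrn1 at 0 by the rule and Flt4 present at 20.01 to 119 CPM.

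Markers of other cells were low but not absent. Immune genes summed to 0 to 127 CPM, epithelial genes to 0 to 18.9 CPM, glial genes to 0.812 to 16.6 CPM and erythrocyte genes to 0 to 10.0 CPM. Fibroblast genes, with Pdgfra at 0 by the rule, summed to 442 to 1761 CPM, against 21010 to 31635 CPM in fibroblasts and 15928 to 30410 CPM in barcodes with at most 100 UMIs, which hold free RNA. Pericyte genes reached 704 CPM in proximal 1, where 46 of the 65 members with 3 or more of 6 pericyte genes were found. At the threshold of the rule, the 54 members with exactly 3 vessel markers had Mecom levels of 973 to 3311 CPM by library, and the 16 cells with only 2 markers, which lay just outside, 0 to 2015 CPM.

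**Figure D2:**
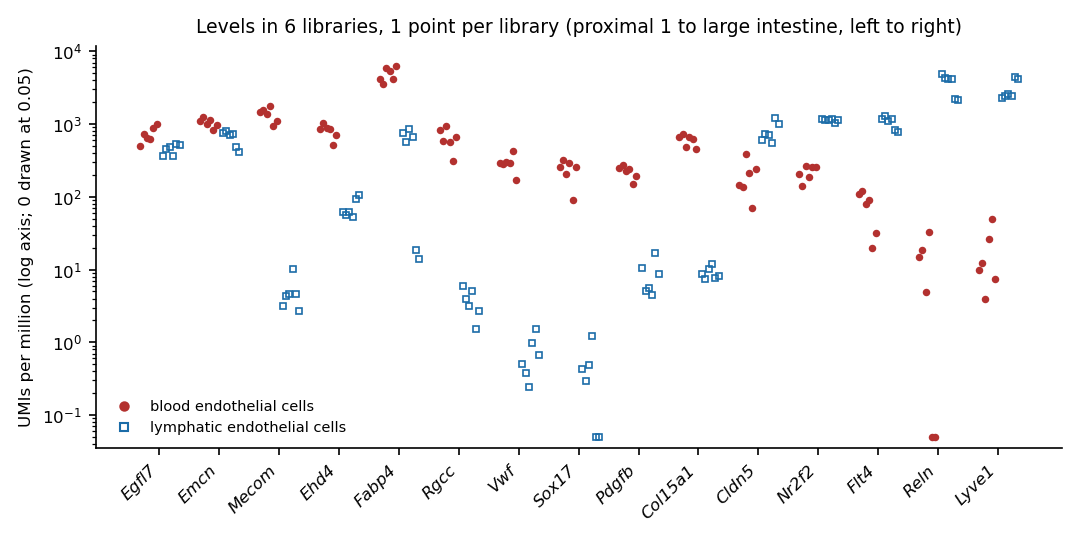
Level of 15 genes in blood (filled circles) and lymphatic (open squares) endothelial cells, in CPM on a log axis, with 1 point per library and 0 drawn at 0.05. Mecom, Rgcc, Vwf, Sox17, Pdgfb and Col15a1 are higher in blood, and Flt4, Reln and Lyve1 in lymphatic endothelial cells, in all 6 libraries.

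The sorted reporter was not seen in these cells. Tslp and tdTomato each had a UMI in 0 of 988 members. The exact 95% upper limit was 0.373% of cells with the libraries pooled, and 0.868% (proximal 1) to 21.8% (cecum) by library. In lymphatic endothelial cells Tslp had a UMI in 97 of 12592 cells (0.770%, exact 95% interval 0.6251% to 0.939%) and tdTomato in 151 (1.20%). Fibroblasts had 1052 of 67343 (1.56%) and 2386 (3.54%), and pericytes 9 of 1439 (0.6254%) and 16 (1.11%). The depth of the cell types was not matched, and the difference between them was not tested.

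The comparison with lymphatic endothelial cells describes which genes set blood vessels apart from their closest relative. Both cell sets were chosen by markers of this same contrast, so fold changes carry no test here. Of 9786 genes, 5147 (52.6%) were past an adjusted p of 0.05 in edgeR's quasi-likelihood test with library as a block, 2654 (27.1%) higher and 2493 (25.5%) lower in blood endothelial cells, and these counts, like those of the gene lists below, describe the libraries only.

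Among receptors for VEGF and angiopoietins, Nrp1, a co-receptor of VEGF, had 1430.3, 1286, 1013, 1195, 871 and 717 CPM against 4.598 to 25.5 CPM in lymphatic cells. Tek, the angiopoietin receptor, had 200.1 to 431 CPM and was nearer to the lymphatic 174 to 263 CPM. Flt4 was 20.01 to 119 CPM in blood against 778 to 1274 CPM in lymphatic endothelium, and Angpt2, an antagonistic ligand of TEK, 0 to 65.3 against 57.8 to 230.4 CPM. Of 10 measured genes of this list that the rule did not use, 3 were higher and 5 lower in blood endothelium, against 27.1% and 25.5% of all genes. The count of higher genes was near that share.

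Of 12 Notch pathway genes, 9 were higher and 1 lower in blood endothelial cells, against 27.1% and 25.5% of all genes. Jag2, a Notch ligand, had 30.02 to 83.7 CPM against 2.69 to 6.57 CPM, and the endothelial receptor Notch4 40.5 to 77.99 against 1.34 to 9.29 CPM. The ranges of these 2 genes did not overlap between the cell types. Dll4, the main endothelial Notch ligand, had 124 to 205 against 88.9 to 128 CPM, with ranges that overlapped. Notch1 was the gene of the list that was lower in blood (180.1 to 308 against 238 to 406 CPM), with ranges that overlap.

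Of 20 transcription factors of endothelium, 13 were higher and 5 lower in blood endothelial cells, against 27.1% and 25.5% of all genes. Sox17, which specifies arteries, had 254, 324, 203, 288, 90.1 and 257 CPM against at most 1.20 CPM in lymphatic cells. Foxf1, a factor of intestinal mesenchyme and vessels, had 50.03 to 72.5 against 2.44 to 6.05 CPM. Tcf15 and Meox2, which together drive fatty acid uptake genes in heart endothelium, had 50.03 to 126 and 24.4 to 82.7 CPM against 2.69 to 17.1 and 0.383 to 7.66 CPM. Nr2f2, which specifies veins and lymphatics, went the other way with 139 to 267 CPM in blood and 1047 to 1177 CPM in lymphatic endothelium. Erg and Ets1, general endothelial factors, were higher in blood by smaller margins (180.1 to 452 against 130.3 to 196 and 458 to 798 against 305 to 524 CPM).

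The genes of fatty acid handling separated the cell types only in part. Fabp4, a fatty acid binding protein, had 4169, 3589, 5849, 5342, 4183 and 6228 CPM in blood endothelial cells against 14.1 to 849.7 CPM in lymphatic cells. Fabp5 had 171 to 401 against 2.69 to 9.29 CPM, and Rgcc, a capillary gene, 310.2 to 950.1 against 1.53 to 5.96 CPM. Car4, the membrane carbonic anhydrase of capillaries, had 191 to 380.2 against 1.71 to 4.47 CPM. Gpihbp1, which carries lipoprotein lipase to the capillary lumen, was lower in blood, with 47.1 to 260.2 CPM, against 207 to 403 CPM in lymphatic endothelium.

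Genes of haemostasis and vascular tone were higher in blood for 12 of 16 genes and lower for 3, against 27.1% and 25.5% of all genes. Vwf, the von Willebrand factor, had 169 to 420.3 CPM against 0.244 to 1.53 CPM. Thbd, thrombomodulin, had 270.2 to 425 against 49.04 to 102 CPM, and Plat, tissue plasminogen activator, 40.03 to 261 against 12.95 to 21.5 CPM. Edn1, endothelin, had 50.03 to 154 against 0 to 0.56003 CPM. F8, coagulation factor VIII, went the other way, with 0 to 8.12 CPM in blood and 41.5 to 56.7 CPM in lymphatic endothelium. Nos3, the endothelial nitric oxide synthase, had 90.1 to 141 against 17.95 to 28.9 CPM.

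Of 13 basement membrane genes, 9 were higher in blood and 3 lower, against 27.1% and 25.5% of all genes. Col15a1 had 459.7 to 721 CPM against 7.49 to 12.05 CPM, Hspg2, perlecan, 565 to 781 against 114 to 160.3 CPM, and Col4a1, a chain of collagen IV, 1292 to 1699 against 430.1 to 774 CPM. Lama4, a laminin chain, was higher in lymphatic cells (180.1 to 477 against 872 to 1393 CPM). Pericyte genes moved with this group, as 3 of 5 measured were higher in blood (Rgs5, Notch3 and Pdgfrb, list median log2 fold change 2.47) and Kcnj8 was lower. Their summed level was 20.01 to 704 CPM in blood and 42.3 to 385 CPM in lymphatic cells, and pericytes had 5038 to 12290 CPM of basement membrane genes in sum. Without the 65 members that had 3 or more pericyte genes, an alternative chosen after seeing the data, again 9 of 13 basement membrane genes were higher and 3 lower, and the log2 fold change of Col4a1 was 1.62 against 1.63 with them. Among signals sent by endothelium, Pdgfb, which recruits pericytes, had 150.1 to 273 against 4.44 to 16.9 CPM. Cxcl12, a chemokine, had 480.4 to 1079 against 58.9 to 82.7 CPM, whereas the WNT potentiator Rspo3 was 0 to 11.5 CPM in blood against 142 to 342 CPM in lymphatic endothelium and Wnt2 0 to 2.55 against 1.34 to 182 CPM.

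Leukocyte adhesion genes were higher in blood for 9 of 10 measured genes, against 27.1% of all genes. Ackr1, the atypical chemokine receptor of venules, had 95.9, 76.4, 275, 96.7, 1041 and 483 CPM against at most 0.697 CPM in lymphatic cells. Sele, E-selectin, had 20.01 to 114 CPM, and Madcam1, the ligand of the gut-homing integrin, 53.6 to 1631 CPM, each against less than 1 CPM. Icam1, a ligand of leukocyte integrins, was present in both (364 to 888 against 176 to 773 CPM). Gut hormone receptors summed to 10.2 to 70.04 CPM in the members and proliferation genes to 76.7 to 140.1 CPM.

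The members were not uniform. Marker sets assigned 110 cells to a venular set (at least 2 of 6 venular genes), 120 to an arterial set (at least 2 of 5 arterial genes) and 31 to a set with at least 3 of Aqp1, Meox2, Lpl and Bmp6. The other 662 cells met none of these, and the 65 cells with 3 or more pericyte genes were kept apart. The venular genes were Ackr1, Selp, Sele, Madcam1, Lrg1 and Vcam1, and the arterial genes Gja5, Sema3g, Bmx, Fbln5 and Stmn2. Selp was also used by the rule, so the venular set and its shares rest partly on a rule gene. The sets were made from counts of the same cells, so their genes are a description. Deeper cells pass such limits more often: the venular set had a median of 8384.5 UMIs, the arterial set 5952.5, the Aqp1 and Meox2 set 4844 and the other members 5085.5.

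The venular set, 6.86%, 7.55%, 18.2%, 12.3%, 13.3% and 21.5% of members in the 6 libraries, was led by Adgrg6, an adhesion receptor. It had 879 CPM against 13.7 CPM in all other members. Next came Cytl1, a secreted protein, with 388 against 9.67 CPM, and Hdc, which makes histamine, with 342 against 11.003 CPM. Cldn5, a tight junction protein, had 890.5 against 63.9 CPM, and Il1r1, the interleukin-1 receptor, 811 against 89.5 CPM. In the arterial set Edn1 had 485 against 78.1 CPM, Plat 589 against 146.2 CPM and the taurine transporter Slc6a6 1083 against 229.5 CPM. The arterial set made up 10.9% to 15.7% of members in every library.

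In the Aqp1 and Meox2 set Lnx1, a ubiquitin ligase, had 858 against 15.6 CPM, Auts2 1274 against 46.4 CPM and Aqp7, an aquaglyceroporin, 197 against 6.30 CPM. Gpihbp1 was also concentrated there, with 522 against 83.1 CPM and a UMI in 90.3% of the 31 cells. They were 3.07%, 1.26%, 3.896%, 6.92%, 0% and 0.935% of members in the 6 libraries. The other members, the most numerous, had more of the capillary gene Car4, with 344 against 77.6 CPM, of Chrm2, a muscarinic acetylcholine receptor, with 705 against 189.9 CPM, and of Ramp3, an adrenomedullin co-receptor, with 125 against 25.9 CPM. The 65 cells with pericyte genes had a median of 11471 UMIs, were predicted as doublets in 13.8% and were led by genes of mural cells, such as Rgs4 (419 against 1.74 CPM) and the chloride channel Ano1 (376 against 1.90 CPM). Whether they are pairs of cells was not tested.

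**Figure D3:**
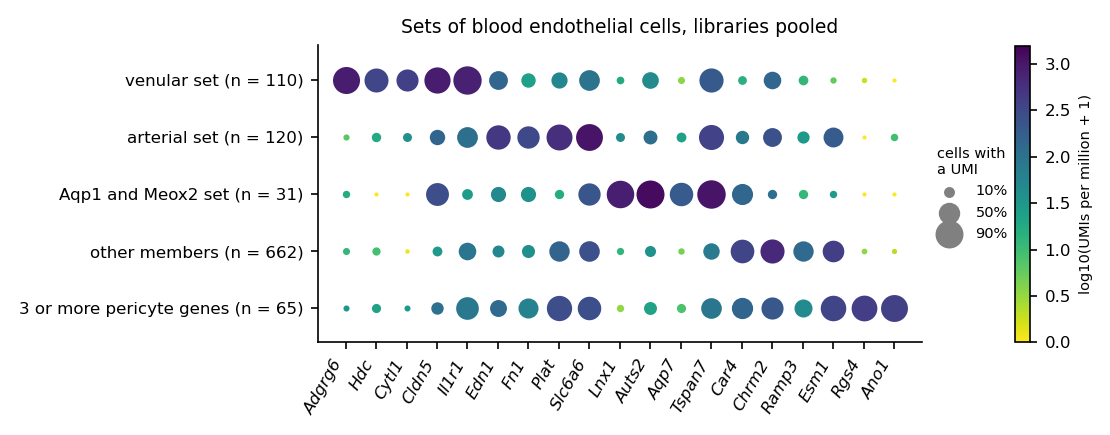
Share of cells with a UMI (dot size) and level as log10(CPM + 1) (colour) of 19 genes in 5 sets of blood endothelial cells, libraries pooled. Adgrg6, Hdc, Cytl1 and Il1r1 stand out in the venular set, Lnx1, Auts2 and Aqp7 in the Aqp1 and Meox2 set, and Rgs4 and Ano1 in the cells with 3 or more pericyte genes.

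Venules were examined further by splitting the members by Ackr1 (GRCm39 chromosome 1, 173159453 to 173161317), which the rule did not use. A UMI of Ackr1 was seen in 21, 10, 24, 12, 2 and 21 members (4.96%, 6.29%, 15.6%, 9.23%, 13.3% and 19.6%). With every member thinned to 2500 UMIs the shares were 3.07%, 5.03%, 14.9%, 9.23%, 13.3% and 18.7%. Cells with Ackr1 were deeper, with medians of 7216 to 19399.5 UMIs against 3741 to 7139 without. In the 5 libraries with 10 or more cells in both arms, 1544 of 6599 genes (23.4%) were past an adjusted p of 0.05 (edgeR, library as a block), 799 (12.1%) higher and 745 (11.3%) lower with Ackr1. The split used UMIs of the same cells, so the values below describe cells with Ackr1 and carry no p.

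Cells with Ackr1 had a venular profile. Sele was 936, 709, 272, 637 and 482 CPM with Ackr1 and 14.95, 1.76, 0, 16.2 and 3.59 CPM without, in proximal 1, proximal 2, distal 1, distal 2 and large intestine, a log2 fold change of 6.56 ± 0.32 (SE). Madcam1 was 537 to 775 CPM with and 7.04 to 20.6 CPM without Ackr1 (5.84 ± 0.23). Of 10 measured venous genes 9 were higher with Ackr1, against 12.1% of all genes. Nr2f2 was 766 to 974 against 59.2 to 139 CPM (3.57 ± 0.21), Vcam1 203 to 772 against 39.004 to 69.4 CPM (3.03 ± 0.20) and Lrg1, a secreted glycoprotein, 323 to 849 against 16.7 to 43.04 CPM (4.65 ± 0.19). Hdc was 169 to 645 against 7.04 to 17.9 CPM (5.22 ± 0.25), Il33, an alarmin, 21.2 to 84.4 against 2.39 to 12.3 CPM (2.99 ± 0.32), and the transcription factor Foxc1 27.7 to 77.2 against 0 to 5.28 CPM (4.67 ± 0.44).

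**Figure D4:**
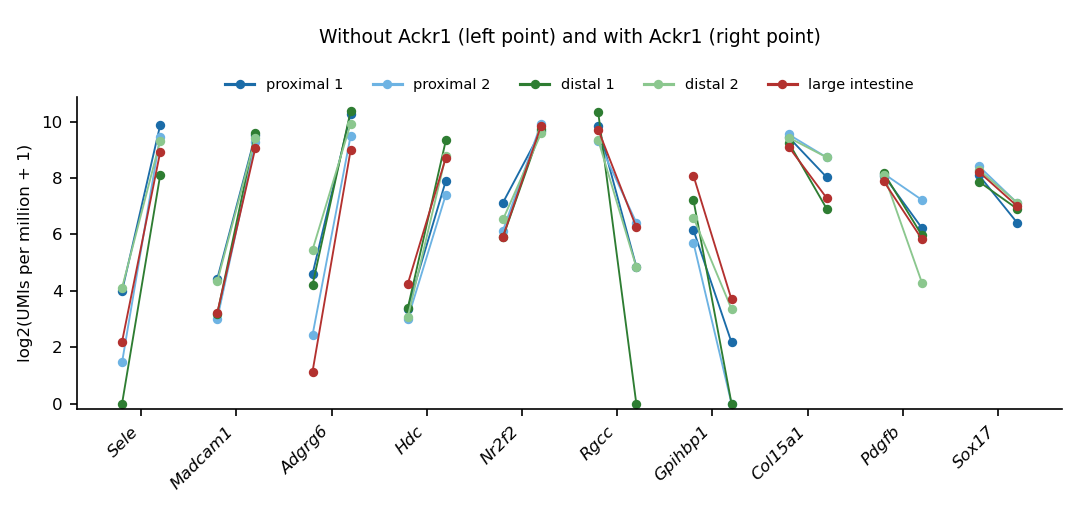
Level of 10 genes as log2(CPM + 1) in members without (left point) and with (right point) an Ackr1 UMI, joined within each of 5 libraries. Sele, Madcam1, Adgrg6, Hdc and Nr2f2 are higher and Rgcc, Gpihbp1, Col15a1, Pdgfb and Sox17 lower with Ackr1 in every library.

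The same cells had less of most matrix and capillary genes measured. Over all genes 11.3% were lower and 12.1% higher with Ackr1, the shares to set beside the counts that follow. Of 12 measured basement membrane genes 11 were lower with Ackr1, with a median log2 fold change of -1.91, against 0.02 over all genes. Col4a1 was 138 to 399.8 against 1644 to 2127 CPM (-2.67 ± 0.23) and Lama4 38.4 to 115 against 341 to 537 CPM (-2.38 ± 0.24). The 3 measured pericyte genes were lower too (Rgs5, Notch3 and Pdgfrb, median -2.26), as were the smooth muscle genes Tagln and Acta2 and the fibroblast gene Col1a2. Without the members that had 3 or more pericyte genes, again 11 of 12 basement membrane genes were lower, and Col4a1 was at -2.78. Capillary genes were lower for 5 of 8, among them Rgcc (0 to 84.7 against 635 to 1283 CPM) and Gpihbp1 (0 to 11.9 against 51.03 to 270.2 CPM), and 1 was higher, Tmem100 (123 to 207 against 13.3 to 27.3 CPM). Of 10 arterial genes 7 were lower and 2 higher (Stmn2 and Fbln5), and of 11 Notch pathway genes 6 were lower and 1 higher (Dll1). Gja4, a gap junction protein, was 0 to 10.6 against 50.2 to 155 CPM and Dll4, a Notch ligand, 3.51 to 52.9 against 156 to 217 CPM. Pdgfb was 18.5 to 148 against 234 to 288 CPM (-1.83 ± 0.24) and Cxcl12 61.4 to 143 against 525 to 1361 CPM (-3.06 ± 0.17). Of 12 immediate early and heat shock genes 7 were higher with Ackr1, for example Egr1 at 2806 to 6635 against 1823 to 2614 CPM.

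Proximal and distal small intestine were compared over 4 libraries, on a choice of members that did not use the region. Of 9224 genes, 0 (0%) passed an adjusted p of 0.05 in edgeR's quasi-likelihood test, 539 had an unadjusted p under 0.05, limma-voom called 0 and DESeq2 6. With the replicate number as a block, which here is also the hashtag set, 133 were called with 1 residual degree of freedom. No gene of the lists passed. Selp and Cd36 were used by the rule and were left out. Ackr1 was 95.9 and 76.4 CPM in the proximal and 274.9 and 96.7 CPM in the distal libraries. The gene with the smallest p, singled out for that, was the heat shock gene Hspa1b, with 1151 and 1071 CPM in the proximal and 423 and 316 CPM in the distal libraries (log2 fold change -1.57 ± 0.22 (SE), adjusted p = 0.0632).

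Small intestine and large bowel differed. Of 9696 genes, 351 (3.62%) passed an adjusted p of 0.05 (edgeR quasi-likelihood test, 4 against 2 libraries), 155 (1.6%) higher and 196 (2.02%) lower in the large bowel. With only the libraries of 1 hashtag set, 2 small intestinal against 2 large bowel, 21 genes were called. Leaving out 1 library moved the count by over 1.5 times in each case, to 90 without proximal 1, 118 without proximal 2, 628 without distal 1, 67 without distal 2, 109 without the cecum and 88 without the large intestine. Without the cecum or the large intestine the large bowel is 1 library, which is then assumed to vary like the small intestinal libraries. Of the 351 genes, 36 were also called without the large intestine. With 10% of the counts subtracted as free RNA there were 197.

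Genes of antigen presentation and interferon response differed between small intestine and large bowel. H2-Aa, H2-Ab1, H2-Eb1 and Ifit3 were raised in the large intestine library alone. For the other genes called, the cecum also lay above every small intestinal library. Of 17 measured genes 10 rose and 0 fell, where 1.6% and 2.02% of all genes did, with a median log2 fold change of 0.98 against -0.03 over all genes tested. Without the large intestine library the log2 fold changes were 1.35 for Bst2, 0.72 for H2-K1, 0.72 for Ly6a and 0.67 for Ly6e. In that fit the large bowel is 1 library, so it carries no p here and cannot show that the rise holds in the cecum. Cd74, the chaperone of MHC class II, had 89.5, 129.98, 174, 129, 420.3 and 1559 CPM (log2 fold change 3.02 ± 0.36 (SE), adjusted p = 0.00228). The large intestine was highest, and the cecum also lay above every small intestinal library. In the cecum 29 of the 42 Cd74 UMIs were in 1 of 15 cells, so that value rests on that cell.

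The class II chains themselves were raised in the large intestine library alone. H2-Aa (chromosome 17, 34493404 to 34506798) had 33.4, 49.6, 79.7, 58.5, 30.02 and 422 CPM (log2 fold change 2.45 ± 0.45 (SE), adjusted p = 0.0204), H2-Ab1 37.5, 50.4, 64.7, 41.99, 60.04 and 347 CPM (log2 fold change 2.42 ± 0.36 (SE), adjusted p = 0.00901) and H2-Eb1 33.1, 42.2, 80.7, 43.3, 30.02 and 396 CPM (log2 fold change 2.52 ± 0.46 (SE), adjusted p = 0.0196). The cecum lay within the small intestinal range for H2-Ab1 and below it for H2-Aa and H2-Eb1. Without the large intestine library the log2 fold change was -0.98 for H2-Aa, -0.84 for H2-Eb1, 0.17 for H2-Ab1 and 1.55 for Cd74. That fit leaves 1 large bowel library and carries no p here. At least 3 of Cd74, H2-Aa, H2-Ab1 and H2-Eb1 had a UMI in 72 of 107 members of the large intestine (67.3%, exact 95% interval 57.5% to 76.0%), against 9.22% to 16.9% in the small intestine. After thinning to 2500 UMIs the shares were 47.7% and 1.65% to 5.19%. Within the large intestine Cd74 was at 1970 CPM in 21 cells with Ackr1, 1436 CPM in 86 cells without, and 1060 CPM in 12 cells of the arterial set. Fibroblasts had 6.501 to 21.6 CPM of Cd74 and a UMI in 2.905 to 8.11% of cells.

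Lymphatic endothelial cells of the large intestine were high in class II as well. Their Cd74 was 169.9, 191, 153, 162, 481 and 1005 CPM and their H2-Aa 82.5, 75.99, 90.9, 76.98, 164 and 423 CPM, and both large bowel libraries lay above the small intestinal ones. The difference between the regional changes of blood and lymphatic cells did not pass for Cd74 (difference of log2 fold changes 0.74 ± 0.32 (SE), adjusted p = 0.334, edgeR with library terms) or H2-Aa (0.43 ± 0.39, adjusted p = 0.709). In that test, chosen after the data were seen, 257 of 11187 genes (2.3%) were called, 129 (1.15%) with a larger and 128 (1.14%) with a smaller change in blood. Bst2, tetherin, had 199.99, 224, 281, 259.6, 680.4 and 565 CPM in blood (log2 fold change 1.32 ± 0.20 (SE), adjusted p = 0.00913) and was 429.96, 478, 552, 496, 661 and 595 CPM in lymphatic cells (difference 0.97 ± 0.17, adjusted p = 0.00956). H2-K1, an MHC class I heavy chain, had 1989, 1885, 2432, 1863, 3742 and 3467 CPM in blood and 3136, 2837, 3532, 2824, 2727 and 3125 CPM in lymphatic cells (difference 0.84 ± 0.15, adjusted p = 0.0114). Psmb8, a subunit of the immunoproteasome, had 98.98, 116, 145, 112, 190.1 and 303 CPM in blood and differed likewise (1.22 ± 0.20, adjusted p = 0.00556). However, its log2 fold change in blood was 0.54 without the large intestine, with 1 large bowel library left. In these 3 genes blood endothelium lay below lymphatic endothelium in each small intestinal library. In the large intestine it lay above for H2-K1 and Psmb8 and still slightly below for Bst2, and in the cecum above for all 3. The cecal Bst2 levels were close (680.4 and 661 CPM), with 68 UMIs in blood, 20.6% of them in 1 cell. Cecal Psmb8 was 19 UMIs in 8 blood endothelial cells, 31.6% of them in 1. Neither cecal order is therefore secure. For H2-K1 the cecal order rests on the 2 cells with Ackr1, which held 214 of its 374 cecal UMIs: without them the cecum had 2617 CPM, below the lymphatic value.

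**Figure D5:**
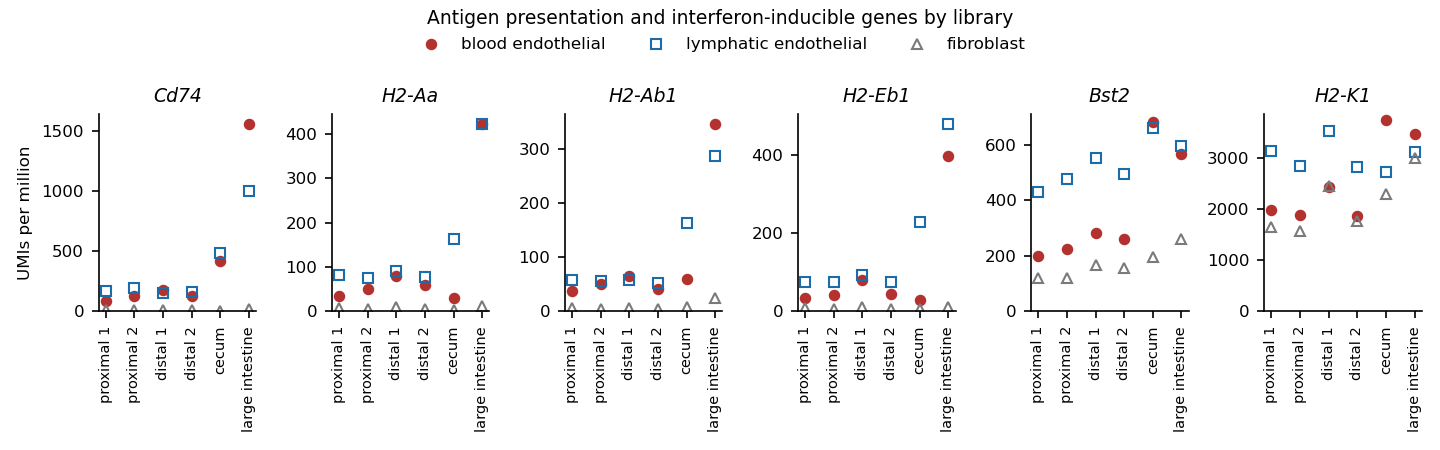
Level of 6 genes in blood endothelial (filled circles), lymphatic endothelial (squares) and fibroblast (triangles) cells of each library, in CPM on linear axes that start at 0. The large intestine is highest for Cd74 and the 3 class II chains in both endothelial types, whereas Bst2 and H2-K1 are raised in blood endothelium of cecum and large intestine.

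Promoter letters of the genes that rose are shown because class II promoters carry a Y box (CTGATTGG) and interferon-inducible promoters an interferon-stimulated element (searched as GAAA, any 2 bases, GAAA, on both strands). RefSeq promoters of the GRCm38.p6 build, 250 bases before the start, were found for 6 of the 10 genes. The Y box was in 4.43% of 27025 promoters and in those of H2-Aa, 51 to 44 bases before the start, and H2-Eb1, 62 to 55 bases before it. The interferon-stimulated element was in 3.46% and in those of Bst2 and Ifit3, an interferon-induced antiviral gene. Of the 13 genes of the whole list with a promoter, 4 held the Y box, also H2-D1 and Tap1, and 5 the interferon-stimulated element, also B2m, Isg15 and Ifit1, none of these 5 being called. Capitals mark the motif, and the positions are chr17:34287856-34287885 (minus strand), chr17:34305794-34305823 (plus), chr8:71537577-71537606 (minus) and chr19:34583397-34583426 (plus, motif on the other strand). The match does not show that a factor binds there.
H2-Aa: aagagaattttCTGATTGGttctggcgagt
H2-Eb1: ctcctttgatgCTGATTGGctcccagcact
Bst2: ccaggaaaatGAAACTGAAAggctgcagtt
Ifit3: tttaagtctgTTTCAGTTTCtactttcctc

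The other interferon genes called were Ly6e, Ly6a and Ifit3. Ly6a, also known as Sca-1, had 949, 988, 1455, 965, 2001 and 2358 CPM (log2 fold change 0.98 ± 0.22 (SE), adjusted p = 0.0343), and Ly6e 676, 758, 785, 708, 1301 and 1147 CPM (log2 fold change 0.70 ± 0.18 (SE), adjusted p = 0.0494). Ifit3 had 20.3, 38.99, 41.8, 34.4, 20.01 and 112 CPM (log2 fold change 1.496 ± 0.37 (SE), adjusted p = 0.0466), high in the large intestine only, and its fold change without that library was -0.86. Irf1, a transcription factor of the interferon response, did not pass (adjusted p = 0.28), nor did the class I light chain B2m (adjusted p = 0.438).

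Of 13 measured Hox genes, which set position along the body axis, 3 were higher in the large bowel (Hoxa9, Hoxa10 and Hoxb9) and 0 lower, against 1.6% and 2.02% of all genes. Hoxa9 (chromosome 6, 52200080 to 52208069), a posterior homeobox gene, had 0, 0, 2.99, 7.64, 60.04 and 64.4 CPM (log2 fold change 5.19 ± 0.72 (SE), adjusted p = 0.00667) and a UMI in 0 of 582 proximal members, 3 of 154, 5 of 130, 4 of 15 and 47 of 107. Hoxa10 had 0, 0, 1.99, 2.55, 10.01 and 21.1 CPM (log2 fold change 4.59 ± 0.86 (SE), adjusted p = 0.0204) and Hoxb9 13.2, 8.94, 18.9, 29.3, 40.03 and 57.01 CPM (log2 fold change 1.69 ± 0.40 (SE), adjusted p = 0.04). In all 3 genes both large bowel libraries lay above all small intestinal ones, but the cecal value of Hoxa10 is 1 UMI. Of the alternative analyses that gave a value, Hoxa9 passed in 14 of 15, Hoxa10 in 9 of 12 and Hoxb9 in 8 of 15. Without the cecum the log2 fold changes were 5.23, 4.71 and 1.79. Without the large intestine they were 4.91 for Hoxa9 and 1.14 for Hoxb9, and Hoxa10 could not be fitted. Each of these fits leaves 1 large bowel library and carries no p here. In fibroblasts Hoxa9 was also higher in both large bowel libraries, 0.00995 to 0.356 CPM in the small intestine and 45.8 and 30.5 CPM in cecum and large intestine.

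Of 8 measured capillary genes 1 rose (Gpihbp1) and 0 fell, and of 14 angiocrine ligands 2 rose (Cxcl12 and Bmp2) and 1 fell (Pdgfd), against 1.6% and 2.02% of all genes. Gpihbp1 (chromosome 15, 75468474 to 75471331) had 63.8, 47.1, 109.6, 83.99, 260.2 and 211 CPM (log2 fold change 1.57 ± 0.29 (SE), adjusted p = 0.0204). In the cecum 65.4% of the 26 Gpihbp1 UMIs were in 1 of 15 cells, so that the cecal level rests on it. The Gpihbp1 call held in 12 of 16 alternative analyses. Its log2 fold change was 1.48 without the cecum and 1.65 without the large intestine, each with 1 large bowel library left. In lymphatic cells Gpihbp1 was 207, 235, 337, 216, 403 and 260.1 CPM, and the regional changes differed (1.31 ± 0.26, adjusted p = 0.0199). Rbp7, a retinol-binding protein, had the smallest p of all genes and is named for that: 24.7, 33.3, 32.9, 29.3, 220.1 and 154 CPM (log2 fold change 2.52 ± 0.23 (SE), adjusted p = 0.000426). Cxcl12 had 480.4, 582, 507, 699, 1021 and 1079 CPM (log2 fold change 0.87 ± 0.20 (SE), adjusted p = 0.0354), and Bmp2, a signal to epithelium and mesenchyme, 6.42, 4.06, 1.99, 6.36, 20.01 and 29.4 CPM (log2 fold change 2.44 ± 0.45 (SE), adjusted p = 0.0204), whereas lymphatic cells had 1.53 to 7.01 CPM of Bmp2 (difference 3.21 ± 0.66, adjusted p = 0.0223). The cecal Bmp2 value is 2 UMIs of 1 cell, and 40.6% of its 32 UMIs in the large intestine were in 1 cell. Without the large intestine its log2 fold change was 1.84, which rests on those 2 UMIs. Cx3cl1, fractalkine, had 22.97, 31.7, 24.9, 22.9, 70.04 and 58.8 CPM (log2 fold change 1.24 ± 0.27 (SE), adjusted p = 0.0318). It passed in 9 of the 15 alternative analyses that gave a value, and Cxcl12 in 9 of 16. Sparc, a matricellular protein, had 1544, 1314, 1476, 1457, 3092 and 2941 CPM (log2 fold change 1.03 ± 0.17 (SE), adjusted p = 0.0158), and Procr, the protein C receptor, 28.7, 39.8, 51.8, 39.4, 70.04 and 91.03 CPM (log2 fold change 1.14 ± 0.27 (SE), adjusted p = 0.044).

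Among the genes that fell, Chrm2, singled out after its values were seen, had 584, 569, 478, 526, 120.1 and 135 CPM (log2 fold change -2.06 ± 0.22 (SE), adjusted p = 0.000819). Flt4 had 111, 119, 78.7, 91.6, 20.01 and 32.2 CPM (log2 fold change -1.74 ± 0.29 (SE), adjusted p = 0.0156), and lymphatic cells, at a higher level, were also lower in the large bowel (1169.5, 1274, 1087, 1189, 819.9 and 778 CPM). The arterial semaphorin Sema3g had 89.2, 115, 59.8, 48.4, 20.01 and 27.6 CPM (log2 fold change -1.60 ± 0.41 (SE), adjusted p = 0.05), Mcam, CD146, 256, 297, 252, 328, 100.1 and 154 CPM (log2 fold change -1.03 ± 0.23 (SE), adjusted p = 0.0343) and Pdgfd, a growth factor for mural cells, 687, 665, 502, 716, 370.2 and 365 CPM (log2 fold change -0.83 ± 0.21 (SE), adjusted p = 0.0481). Slc4a4, a bicarbonate transporter, had 47.6, 28.4, 69.7, 48.4, 10.01 and 0 CPM (adjusted p = 0.0133) and Cacnb4, a calcium channel subunit, 85.1, 111, 47.8, 11.5, 0 and 3.68 CPM (adjusted p = 0.0463). Many of the calls between small intestine and large bowel depended on the analysis. Of the 47 called genes that were on a list or met the naming rule, 7 were still called with the replicate 1 libraries only. Without distal 2 it was 20, and without distal 1 it was 46. Without the large intestine, which leaves 1 large bowel library, the direction of 3 was reversed (H2-Aa, H2-Eb1 and Ifit3). Of 16 alternative analyses, Sema3g and Pdgfd passed in 5, Procr in 6, Jun and Ly6e in 7 and H2-K1 in 8. Reln passed in 5 of the 12 that gave a value, Mmp10 in 5 of 13, Scn7a in 6 of 14 and Plekha6 in 2 of 8. After subtraction of 10% free RNA, Bmp2, Cxcl12, Procr, Hoxa10, Hoxb9, Ly6a, Ly6e, Jun, Ifit3, Sema3g, Pdgfd and Cacnb4 did not pass (adjusted p = 0.0545 to 0.154), all with the direction they had without it. The log2 fold change of most moved little, for example to 0.84 for Cxcl12 and 1.65 for Hoxb9, whereas that of Bmp2 went to 4.06 and that of Procr to 0.80.

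Several other genes lower in the large bowel were abundant in other cells or in free RNA. Sntg1, a syntrophin, had 51.01, 97.5, 95.6, 30.5, 0 and 0 CPM in the members. Its small intestinal mean was 27.2-fold above 3 counts over both large bowel libraries, which are worth 2.53 CPM. This ratio, and those of Mmp10, Reln and Plekha6 below, treat UMIs as independent, so none is a lower limit over cells or libraries. Of the 96 Sntg1 UMIs of distal 1, 61.5% were in 1 cell. In fibroblasts Sntg1 was 147 to 792 CPM in the small intestine and 10.1 and 18.5 CPM in the large bowel. Mmp10, a matrix metalloproteinase, was 5.72-fold lower by the same count (18.9, 13.8, 5.98, 19.1, 0 and 0 CPM) and 142 to 480.4 against 2.27 and 30.1 CPM in fibroblasts. Reln was 7.09-fold lower by that count, with 4130.4 to 4835 CPM in small intestinal and 2235 and 2164 CPM in large bowel lymphatic cells, and Plekha6 3.55-fold lower. Dkk2, a WNT antagonist, fell (17.6, 15.4, 20.9, 21.6, 10.01 and 0 CPM), as did the cell adhesion gene Lsamp (78.04, 34.9, 59.8, 13.998, 10.01 and 0.919 CPM) and the sodium channel Scn7a (30.4, 17.1, 12.9, 12.7, 0 and 0.919 CPM), and fibroblasts had 386 to 693, 410.4 to 614 and 385 to 499.9 CPM of them in the small intestine. The antibody genes Igha (246, 205, 133, 139, 10.01 and 1.84 CPM) and Jchain (119.9, 98.3, 45.8, 64.9, 0 and 13.8 CPM) fell too, and Jchain was 46.3 to 5027 CPM in free RNA. Mmp10, Reln, Plekha6, Dkk2, Scn7a, Igha, Jchain and Nrg1 gave no value after subtraction of free RNA. Sntg1 and Lsamp did not pass after it (adjusted p = 0.0608 and 0.127), with fitted log2 fold changes of -8.71 and -7.77 against -9.37 and -4.78 without it.

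Of 12 immediate early and heat shock genes 4 rose in the large bowel and 0 fell, against 1.6% and 2.02% of all genes: the heat shock genes Hspa1a (961, 969, 526, 335, 2542 and 1872 CPM, log2 fold change 1.61 ± 0.34 (SE), adjusted p = 0.0301), Dnajb1 and Hsp90aa1 and the immediate early gene Jun. Of 16 alternative analyses, Hspa1a and Hsp90aa1 passed in 12, Dnajb1 in 10 and Jun in 7. Without the cecum the log2 fold changes of Hspa1a, Dnajb1, Hsp90aa1 and Jun were 1.398, 1.12, 0.804 and 0.746. Without the large intestine they were 1.6996, 1.19, 1.43 and 0.609. Each of these fits leaves 1 large bowel library and carries no p here. Tissue dissociation is known to induce immediate early and heat shock genes, and the part of handling in the regional difference was not tested.

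Several of the largest rises lay in 2 cecal cells. Stra6, the retinol transporter, had 0.338, 0, 0, 0, 780.5 and 10.1 CPM (adjusted p = 0.0143), Ubd, a ubiquitin-like modifier, 7.09, 2.44, 0, 6.36, 801 and 57.01 CPM, Enpp2, autotaxin, 26.7, 16.2, 13.9, 7.64, 1071 and 46.9 CPM, Nrg1, a growth factor, 9.12, 1.62, 2.99, 5.09, 550.3 and 20.2 CPM and Serpinb1a, a protease inhibitor, 20.9, 19.5, 27.9, 20.4, 690.4 and 99.3 CPM. In the cecum all 78 Stra6, 80 Ubd and 107 Enpp2 UMIs were in the 2 cells with Ackr1, all 55 Nrg1 UMIs in 1 of them, and the other 13 cecal cells had none of these. Without members that had Ackr1, Stra6, Ubd and Nrg1 could not be fitted and the log2 fold change of Enpp2 was 0.25 (adjusted p = 0.807). Without the cecum the log2 fold changes were 3.605 for Ubd, 2.16 for Serpinb1a and 1.37 for Enpp2. That fit leaves 1 large bowel library and carries no p here. In the large intestine 43.5% of the 108 Serpinb1a UMIs were in 1 cell.

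These 2 cells also had Glycam1 (chromosome 15, 103471186 to 103473515), a mucin-like ligand of L-selectin that marks high endothelial venules, the vessels through which lymphocytes enter lymphoid tissue. It had 62 and 54 UMIs in them, and 0 UMIs in the 13 other cecal members and the 973 members of the other libraries. Madcam1 had 92 and 71 UMIs, Lrg1 87 and 82, and Ackr1 70 and 34. The cells had 23481 and 15318 UMIs, more than any other cecal member. Chst4, a sulfotransferase of high endothelial venules, had no UMI in any member, and Fut7, a fucosyltransferase, 1 UMI in 1 of the 2 cells. Glycam1, Lrg1, Chst4 and Fut7 were looked at after the values of the cecum had been seen, and 2 cells of 1 library give no measure of spread.

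Ackr1 and Vcam1 passed between small intestine and large bowel (log2 fold change 2.36 ± 0.44 (SE), adjusted p = 0.0204 and log2 fold change 1.26 ± 0.24 (SE), adjusted p = 0.0204). Vcam1 was also higher in cells with Ackr1. Without the cecum, where all 104 Ackr1 UMIs were in 2 cells, the log2 fold change of Ackr1 was 1.83, with 1 large bowel library left. It had a UMI in 4.96%, 6.29%, 15.6%, 9.23%, 13.3% and 19.6% of members in the 6 libraries, and Vcam1 had 74.997, 95.9, 119, 72.5, 190.1 and 232 CPM, with 63.2% of its 19 cecal UMIs in 1 cell. With Ackr1 cells removed, the log2 fold change of Vcam1 was 0.45 (adjusted p = 0.36), and Bmp2, Bst1, Fjx1 and Plekha6 could not be fitted. H2-K1 (0.59, adjusted p = 0.0812), Procr (0.70, adjusted p = 0.33), Hoxb9 (1.596, adjusted p = 0.0627) and Pdgfd (-0.58, adjusted p = 0.0797) no longer passed either. For Cd74 it was then 3.23, for Gpihbp1 1.79, for Hoxa9 5.03 and for Bst2 1.35, each still called (adjusted p at most 0.0059).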

How the data were processed

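Live tdTomato-positive lamina propria cells of 6 libraries were captured with the Chromium 3′ chemistry (v3.1). The deposited values are raw UMI counts per gene and barcode, made by the authors with Cell Ranger (8.1.0 per the labels, 8.0.1 per the file headers) against mm39 with tdTomato. The study's removal of free RNA, doublets and clusters was not applied to these counts. Its cluster step took out, as contaminants, clusters with very few tdTomato-positive cells. The members had no tdTomato UMI, and whether that step would have removed them was not tested. Barcodes with 1000 to 7500 genes, 2500 to 40000 UMIs and less than 10% mitochondrial UMIs were kept, and doublets were predicted with Scrublet (scanpy 1.11.5) but not removed. Member UMIs were summed per library and compared with edgeR 4.0.16 (R 4.3.3) by its quasi-likelihood test, with TMM scaling, filterByExpr and Benjamini-Hochberg adjustment at 0.05 over all genes tested. Library was a block in comparisons between cells of the same libraries, and the 12 genes of the rule were left out of the calls. limma-voom (limma 3.58.1), the study's kind of test, and DESeq2 1.42.0 were alternatives, with others on filters, membership and left-out libraries. Libraries needed at least 10 cells per arm, which left the cecum out of the comparison by Ackr1. Shares were compared with an exact permutation test over libraries. Free RNA was read from barcodes with at most 100 UMIs.

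Genes could be named if they were called, had libraries that did not overlap (or, with a block, moved alike in each) and ranked in the first 10 by fitted change, upward or downward. The genes of the lists could be named as well, and only part of both is in the text. Members, lists and marker sets were chosen with earlier results of these data known. Scripts were tested on simulated counts with 2-fold changes put in. Of these, 30.1% were recovered for proximal against distal and 27.3% for small intestine against large bowel. The shares were 91.3% for blood against lymphatic cells and 65.3% for the split by Ackr1. False calls made up 4.84%, 10.5%, 6.28% and 4.55% of calls, in that order. Gene positions are from GENCODE M39 on GRCm39, matched for 313 of 313 genes, and promoter letters are from RefSeq on GRCm38.p6, a different build. Intervals cover counting error only.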

Additional observations from a re-analysis of the deposited data

Results flagged for a closer look

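Among 88 groups of 4 or 5 libraries, 11 had a library far from the rest. The limit used is meant to flag about 1 in 20 groups of normally distributed values. Some values here are 1 or a few UMIs, so the 11 of 88 cannot be set against that rate. Proximal 1 had 2.45% blood endothelial cells, above the other 3 small intestinal libraries. Among small intestinal libraries distal 1 stood apart for Ackr1 (275 CPM) and Ly6a (1455 CPM), distal 2 for Fjx1 (1.27 CPM, 1 UMI) and proximal 1 for Stra6 (0.338 CPM, 1 UMI). Among members without Ackr1, the large intestine stood apart for Hdc (17.9 CPM) and Rbp7 (201 CPM). Among members with Ackr1, proximal 2 stood apart for Mpped2 (10.6 CPM), Dlg2 (74.1 CPM) and Rbp7 (21.2 CPM), and distal 1 for Tspan8 (19.2 CPM).

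Among the 47 called genes on a list or named by rank, the change from small intestine to large bowel differed between blood and lymphatic endothelial cells for 7 (edgeR, difference of log2 fold changes): Bmp2 by 3.21, Bst2 by 0.97, Cx3cl1 by 1.82, Gpihbp1 by 1.31, H2-K1 by 0.84, Psmb8 by 1.22 and Stra6 by 9.71. Each was larger in blood, but the 47 were chosen by their regional change in blood, which favours that direction. Over all 11187 genes, 129 (1.15%) were larger and 128 (1.14%) smaller in blood. The value of Stra6 rests on the 2 cecal cells with Ackr1.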

How the results depend on the processing

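Between proximal and distal small intestine, where 0 genes were called, DESeq2 called 6, no filter on low counts 147, Plvap required 2, and 10% free RNA subtracted 10. Removal of members with pericyte genes gave 8 and of members with Ackr1 1, both chosen after the data were seen. With the replicate block 133 were called. The replicate number goes with the hashtag set, and the deviations of same-numbered libraries had a correlation of 0.051 across genes, over 2 pairs. Leaving out 1 library gave 10 to 90 calls. Against the large bowel, 351 calls became 845 with no filter, 197 with free RNA subtracted, 21 with the replicate 1 libraries only and 67 to 628 with 1 library left out. Without 1 large bowel library the log2 fold change was -0.98 to 2.97 for H2-Aa, -0.84 to 3.02 for H2-Eb1 and -0.86 to 1.78 for Ifit3, the lower value being that without the large intestine. With no replicate block, blood against lymphatic cells gave 4283 calls and the split by Ackr1 1338. The causes were not tested. The differences in share, -0.986 and -0.665 percentage points, kept their direction under every alternative run. The 15 cecal cells limit all values of the cecum.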
